A study of Danio rerio with 46 samples.

Results

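Of the 4 adult zebrafish ovaries in the series that came from fish exposed to 36 °C as juveniles, 2 had levels of testis genes far nearer to those of ovaries kept at 28 °C than the other 2 had, and these ovaries are described here. They are heat ovaries 1 and 3, set against the 4 control ovaries, so that 6 of the 46 arrays of the series enter the main comparison. They were chosen by their own values, as ovaries low in amh, cyp11c1 and sycp3, and the levels of those 3 genes and of other sex genes are therefore given as a description, with no test between heat and control ovaries. The series exposed juvenile zebrafish to 36 °C or to 28 °C for 14 days, from 18 to 32 days post fertilization (dpf), and reared all of them at 28 °C afterwards. Adult gonads were taken at 90 dpf (10 heat and 10 control testes, 4 heat and 4 control ovaries) and juvenile trunks at 37 dpf (10 heat and 8 control trunks). Total RNA was extracted with Trizol, amplified over the whole transcriptome and hybridised with 1 dye, Cy3, to NimbleGen arrays. All values are log2 signals of the 31475 rows of the table, where a row is a gene, clone or locus as the table names it, and the number of arrays limits their precision. The ovaries are whole organs, in which fewer cells of a type and less RNA per cell cannot be told apart.

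Zebrafish have no single master sex gene in domesticated strains, and every juvenile first passes through a stage with an ovary-like gonad. In the ovary, oocytes supply egg coat proteins and growth factors of the transforming growth factor family, and the follicle cells around them make estrogen with the aromatase Cyp19a1a under the transcription factor Foxl2. In the testis, Sertoli cells make anti-Müllerian hormone (amh), Leydig cells make fish androgens with Cyp11c1, and spermatocytes in meiosis build the chromosome axis protein Sycp3. High water temperature in the juvenile period is known to raise the share of males.

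Across all rows, heat ovaries 1 and 3 were as close to control ovaries as control ovaries were to each other. The correlation across genes, which are not independent replicates, was 0.944 to 0.955 between either heat ovary and the controls, 0.951 between the 2 heat ovaries, and 0.947 to 0.954 among the controls. For heat ovaries 2 and 4, which carried testis transcripts, it was 0.762 to 0.823 with the controls. Heat ovaries 1 and 3 were chosen for low testis signal, and control testes and ovaries differed in 60.3% of rows in limma. Their closeness to the control ovaries was thus favoured by the choice and is given as a description. Heat ovary 1 lay at least 1 log2 unit outside the range of a set of 3 control ovaries in 1115 to 1173 rows, depending on the set, and heat ovary 3 in 1321 to 1476 rows. A control ovary lay that far outside the other 3 control ovaries in 1078 to 1403 rows. Single heat arrays thus had about as many extreme rows as single control arrays. Array medians were 7.99 to 8.03 in the heat ovaries and 7.97 to 8.04 in the control ovaries. No label gives a slide, scan or batch.

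The genes that chose these ovaries had the following levels. The Sertoli cell hormone gene amh stood at 7.37 and 7.27 in heat ovaries 1 and 3, at 10.26 and 10.46 in heat ovaries 2 and 4, and at 5.94, 6.64, 5.63 and 7.44 in control ovaries 1 to 4. The androgen enzyme gene cyp11c1 had 7.54 and 7.29 in heat ovaries 1 and 3, 11.65 and 12.29 in heat ovaries 2 and 4, and 6.54, 6.74, 6.35 and 6.76 in the controls. Both cyp11c1 values were above all 4 controls, by 0.53 log2 units or more, and far under the 12.17 of the lowest control testis. The meiosis gene sycp3 had 7.94 and 8.79 in heat ovaries 1 and 3, 11.46 and 12.19 in heat ovaries 2 and 4, and 8.50, 8.63, 7.56 and 6.48 in the controls. For amh and sycp3, heat ovaries 1 and 3 overlapped with the controls, while heat ovaries 2 and 4 stood above all of them. The Sertoli cell factor gene gsdf had 8.61 and 8.88 in heat ovaries 1 and 3 against 8.81, 8.60, 8.97 and 8.98 in the controls. The testis transcription factor gene dmrt1 had 6.31 and 6.72 against 6.04, 6.02, 6.13 and 6.29, so both heat values were above all controls, the lower one narrowly.

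**Figure D1:**
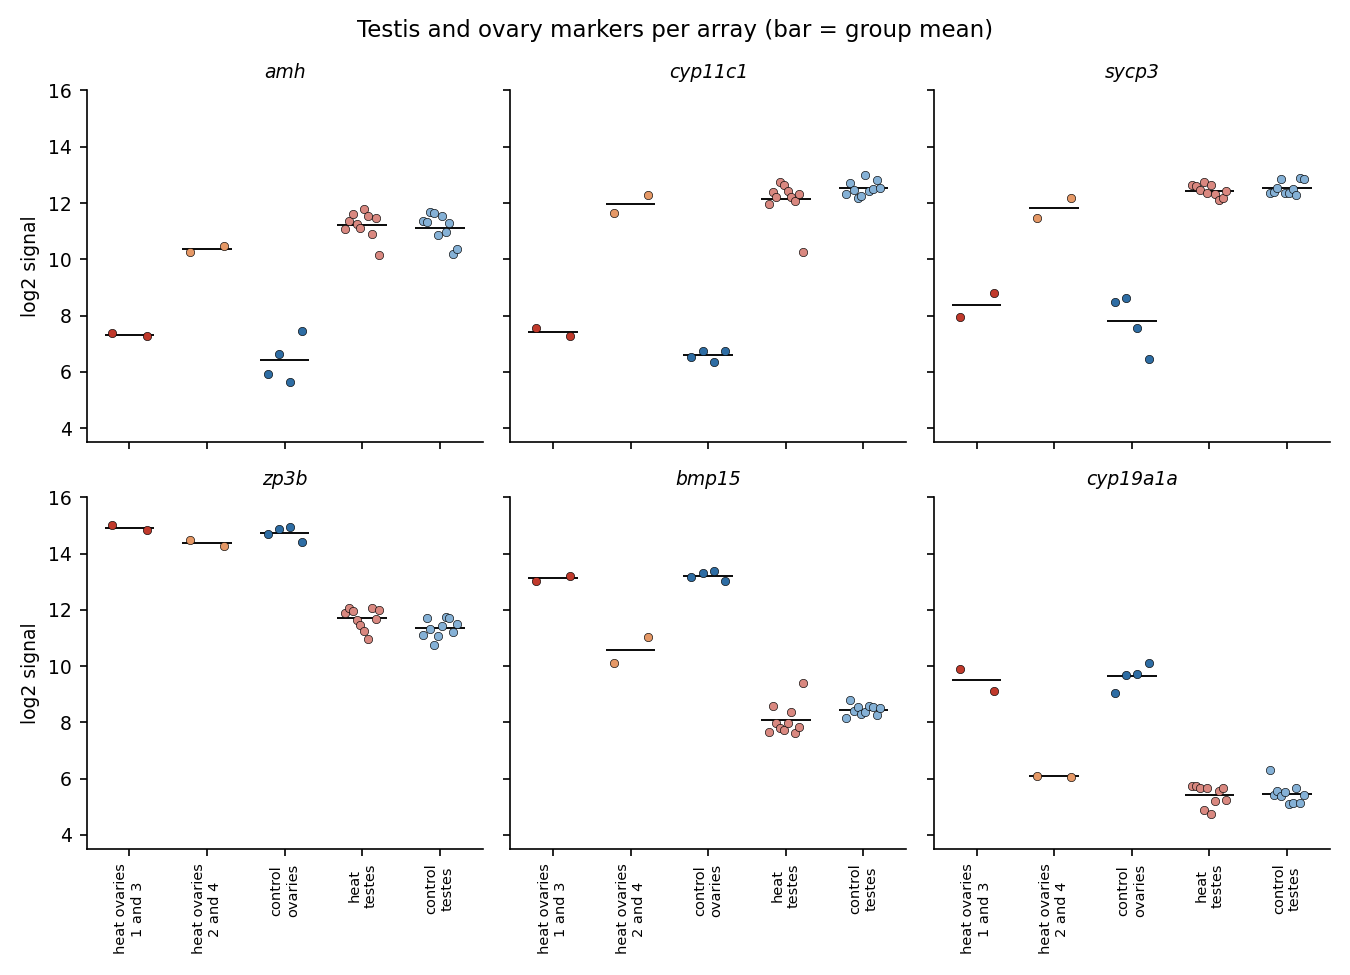
Log2 signal (vertical axis) of 3 testis genes (amh, cyp11c1, sycp3) and 3 ovary genes (zp3b, bmp15, cyp19a1a) in each array of 5 adult groups. A point is an array and a bar is the mean of its group. Heat ovaries 1 and 3 overlap with the control ovaries in 5 of the 6 genes and lie above them by 0.53 or more in cyp11c1. For cyp19a1a they are at 9.89 and 9.13 against 9.05 to 10.10 in the controls, where heat ovaries 2 and 4 have 6.11 and 6.06.

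Most of the ovary genes examined here overlapped between heat ovaries 1 and 3 and the controls. The aromatase gene cyp19a1a had 9.89 and 9.13 in the heat ovaries and 9.05, 9.70, 9.73 and 10.10 in the controls. Its regulator foxl2 (foxl2a) had 9.42 and 9.69 against 8.86, 9.63, 9.31 and 8.95. The heat and control values of both genes overlapped. The oocyte growth factor genes gdf9 (11.61 and 11.95 against 10.98, 11.61, 12.12 and 11.13) and bmp15 (13.02 and 13.21 against 13.16, 13.32, 13.39 and 13.01) overlapped as well, and so did the egg coat gene zp3b (mean 14.92 against 14.70, 14.86, 14.95 and 14.40). The germ cell helicase gene vasa (ddx4) had 13.70 and 13.53 in the heat ovaries against 13.42, 13.48, 13.38 and 12.78, so both heat values were above the controls by 0.047 or more. In control fish the testes differed from the ovaries in 60.3% of rows in limma, with adjusted p-values of 2.4e-10 for cyp19a1a and 3.6e-13 for bmp15. The levels of cyp19a1a, foxl2, gdf9, bmp15 and zp3b given here are those of the ovary side, which the choice of the arrays favoured. For vasa the control testes and ovaries did not differ (adjusted p = 0.103 in limma).

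Steroid synthesis and hormone receptor genes were also within or close to the control range. The cholesterol carrier gene star had 9.50 and 9.89 in the heat ovaries and 9.07 to 9.78 in the controls, and cyp11a1 (cyp11a1.1), the enzyme of the first step of steroid synthesis, had 12.13 and 13.31 against 12.12 to 13.28. The gene cyp17a1, whose enzyme leads to androgens, had 11.71 and 11.81, both under the lowest control ovary at 11.86. The estrogen receptor gene esr1 had 7.12 and 7.21, both above the highest control ovary at 6.83, while esr2a (10.78 and 10.97 against 10.35 to 11.04) and esr2b (5.70 and 6.25 against 5.24 to 6.46) overlapped. The gonadotropin receptor gene fshr had 6.24 and 7.42 against 6.15 to 7.38, and lhcgr had 8.33 and 7.63 against 7.13 to 7.85. The androgen receptor gene ar (11.35 and 11.40 against 10.82 to 11.40) and the progestin receptor gene pgr (7.54 and 8.35 against 7.11 to 8.95) overlapped too. The yolk precursor gene vtg1, known best as a product of the liver under estrogen, had 9.75 and 10.54 against 8.64 to 9.57, above the controls by 0.18 or more. The distances of cyp17a1, esr1 and vtg1 from the control range were all under 0.30 log2 units.

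The heat shock gene hsp70l had 10.59 and 9.96 in the heat ovaries, both under the lowest control ovary at 10.72. Its cytosolic chaperone partner hsp90aa1.1 had 11.20 and 10.43 against 9.75 to 11.15. The DNA methyltransferase gene dnmt1 had 12.92 and 12.95 against 12.86 to 13.38, and the early response gene fos (fosab) had 11.69 and 11.30 against 11.59 to 12.48. The Sertoli cell transcription factor gene sox9a, which the testes of this series did not express above the ovaries (adjusted p = 0.11 in limma), had 5.63 and 5.82 against 5.54 to 5.99. The genes hsp70l, hsp90aa1.1, dnmt1 and fos did not pass in the comparison of heat ovaries 1 and 3 with the controls, with adjusted p-values in limma of 0.903 for hsp70l, 0.974 for fos, 0.986 for hsp90aa1.1 and 0.992 for dnmt1.

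The test over all rows found few genes that differed. With limma and a Benjamini-Hochberg adjustment over all rows, 8 of 31475 rows had an adjusted p under 0.05, which is 0.0254% of rows. Of these, 1 was higher in the heat ovaries (0.00318% of rows) and 7 were lower (0.0222%), and 1733 rows had an unadjusted p under 0.05. The count was 4 without heat ovary 1, and 1 without heat ovary 3 or without any single control ovary. Data for 6 arrays were also simulated, with normal values drawn from the mean and SD of each row in the 4 control ovaries. In these data 0% of 200 rows moved by 1 log2 unit were recovered, 29% of those moved by 2 and 71% of those moved by 4. The heat ovaries gave no values to the simulation, so these shares need not hold for the real comparison. An exact permutation test on the ranks of 2 against 4 arrays cannot give a two-sided p under 0.133, and no permutation test was used for single genes.

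The row that rose was ndufs8b, a gene for an iron-sulfur subunit of complex I of the mitochondrial respiratory chain. It had 12.07 and 11.95 in heat ovaries 1 and 3, 8.45 and 10.67 in heat ovaries 2 and 4, and 5.14, 4.77, 4.89 and 4.70 in the control ovaries. The control values lay near the low end of the arrays, whose 10th percentile was 5.29, and the heat values were at least 6.81 log2 units above them. The difference was 7.13 ± 0.23 (SE), a 140-fold ratio of signals, with an adjusted p of 0.000779 in limma. It kept an adjusted p under 0.05 when any 1 of the 6 arrays was left out, with 0.00687 to 0.0357. The sister gene ndufs8a, which encodes the same subunit, had 12.30 and 12.61 in the heat ovaries against 11.91, 12.42, 12.64 and 12.64 in the controls, and its groups overlapped. Over the 42 measured complex I genes the median difference was −0.0041, against −0.0014 over all rows, and ndufs8b was the 1 member that passed.

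In other tissues of the series ndufs8b had 2 separate levels within a temperature group. Of 10 heat testes, 4 lay at 8.88 to 9.95 and 6 at 4.62 to 5.85, and of 10 control testes, 4 lay at 10.00 to 10.47 and 6 at 5.14 to 6.51. High and low testes thus occurred at both temperatures in equal numbers, and the mean difference of −0.52 did not pass (adjusted p = 0.88 in limma). Of the trunks, 0 of 10 heat trunks and 3 of 8 control trunks were at the high level. When the spread of a row was estimated over 26 adult arrays, the testes included, the adjusted p of ndufs8b in the ovary comparison was 0.0881.

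The 7 rows that fell included 2 with very high signal in control ovaries. The row zgc:175135 had 10.56 and 10.19 in heat ovaries 1 and 3 against 14.27, 14.49, 14.21 and 14.67 in the controls, a difference of −4.03 ± 0.25 (SE; adjusted p = 0.0264 in limma). The row loc100334068 had 9.17 and 9.32 against 14.35, 13.74, 14.14 and 13.31, a difference of −4.64 ± 0.34 (adjusted p = 0.0266). Both are much weaker in testes, with control medians of 7.60 and 5.91, and heat ovaries 2 and 4 had 11.95 and 11.81 for zgc:175135 and 10.81 and 10.23 for loc100334068. All 4 heat ovaries were therefore below all 4 control ovaries in both rows. Heat ovaries 2 and 4 carried testis transcripts, and the part of these in their values was not tested. A further row of this kind, loc100537499, had 8.38 and 5.28 against 14.23, 13.92, 14.49 and 14.00 and did not pass (adjusted p = 0.086 in limma). Its heat values were far apart, and it was chosen after its values were seen.

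The other 5 rows that fell had lower signals than these in control ovaries. The row zgc:162989 (ppp1r14d), related to inhibitors of the protein phosphatase PP1, had 5.19 and 6.02 against 9.57, 9.87, 9.91 and 9.88, a difference of −4.20 ± 0.30 (adjusted p = 0.0266 in limma). The row loc100005283 had 4.92 and 4.72 against 9.30, 9.26, 9.57 and 10.33, and si:ch211-153m11.1 had 7.79 and 8.38 against 11.88, 12.24, 11.81 and 11.83. The rows ev558070 (5.37 and 5.34 against 9.09, 9.02, 8.97 and 8.31) and ex159659 (6.65 and 5.64 against 9.98, 9.92, 9.98 and 9.78) are named by a sequence record only. In these 5 rows no heat ovary of the pair came within 2.93 log2 units of the lowest control ovary. Heat ovaries 2 and 4 were above heat ovaries 1 and 3 in all 5 rows, with 13.18 and 9.90 for zgc:162989, 12.57 and 12.07 for loc100005283 and 11.13 and 7.09 for ev558070. Some of these rows, too, had 2 levels in testes. For ev558070, 3 of 10 heat testes and 2 of 10 control testes were at 8.53 or lower, and the others were at 11.51 or higher. None of the 7 rows kept an adjusted p under 0.05 in any of the 6 fits that left out 1 array, where their adjusted p was 0.0591 to 0.324 in limma.

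Rows were also counted by their single values, with no test. A row is called shifted here when both heat ovaries lay on the same side of all 4 control ovaries by at least 1 log2 unit. This was the case in 134 rows (0.426%), 67 above the controls (0.213%) and 67 below (0.213%), and the median distance from the control range was 1.38 log2 units. At any distance, both heat ovaries lay outside the control range in 4427 rows (14.1%). In 114 of the 134 shifted rows the 2 heat ovaries were within 1 log2 unit of each other. The count depends on single arrays: it was 215 to 263 when a control ovary was left out, 725 for heat ovary 1 alone and 942 for heat ovary 3 alone.

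**Figure D2:**
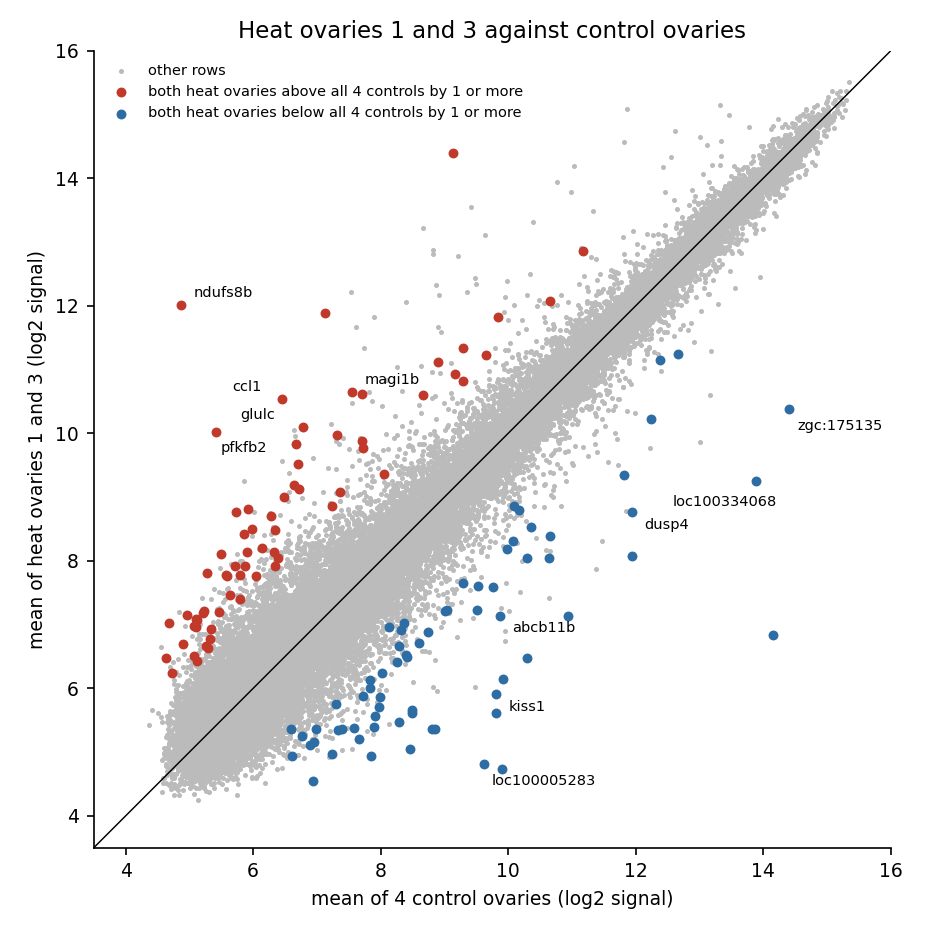
Mean log2 signal of heat ovaries 1 and 3 (vertical axis) against the mean of the 4 control ovaries (horizontal axis) for all 31475 rows, with the line of equal signal. Red points are the 67 rows with both heat ovaries at least 1 log2 unit above all 4 controls, blue points the 67 rows below them, and ndufs8b stands alone at 12.01 against 4.87.

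Named genes with higher values in heat ovaries 1 and 3 had different roles. The gene pfkfb2 (pfkfb2a), whose enzyme sets the level of the glycolysis activator fructose 2,6-bisphosphate, had 9.60 and 10.07 in heat ovaries 1 and 3, 9.56 and 9.48 in heat ovaries 2 and 4, and 7.02, 5.79, 6.12 and 7.74 in the controls. The glutamine synthetase gene glulc had 9.97 and 10.22, then 10.76 and 10.57, against 7.62, 4.60, 7.16 and 7.72. In both genes all 4 heat ovaries were above all 4 controls, and the control ovaries differed widely among themselves. Control testes were also higher than control ovaries, with means of 9.60 for pfkfb2 and 11.85 for glulc. Heat ovaries 2 and 4 carried testis transcripts, and the part of these in their values was not tested. The differences of heat ovaries 1 and 3 were 3.16 ± 0.57 (SE) for pfkfb2 and 3.32 ± 0.89 for glulc, and neither passed in limma on the 6 arrays (adjusted p = 0.392 and 0.734).

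A further 7 named genes had higher values in heat ovaries 1 and 3. The gene magi1b, a scaffold protein of cell junctions, had 10.60 and 10.69 in heat ovaries 1 and 3 against 7.78, 6.74, 8.29 and 7.39 in the controls, and 6.93 and 8.08 in heat ovaries 2 and 4. The chemokine gene ccl1 (ccl27a) had 10.24 and 10.82 against 7.32, 6.22, 6.26 and 6.05. The gene pglyrp6, of a family that recognises bacterial cell walls, had 10.87 and 10.37 against 6.91, 8.82, 6.33 and 8.80. Heat ovaries 2 and 4 had 6.15 and 11.66 for ccl1 and 10.03 and 13.13 for pglyrp6. In all 7 genes the gap between heat ovaries 1 and 3 and the controls is set by the rule that named them. The caspase gene casp3b, an executioner of apoptosis, had 9.96 and 10.00 against 6.59, 6.44, 8.87 and 7.34, and zgc:111893 (mhc1zca), of the class I antigen presentation genes, had 7.06 and 7.26 against 4.01, 5.55, 5.65 and 4.64. The row zgc:162239 had 9.25 and 9.78 against 6.62, 6.31, 6.46 and 7.43, and 13.78 and 13.62 in heat ovaries 2 and 4, near the control testis median of 14.44. For loc100329650 the values were 8.11 and 8.74 against 6.33, 4.68, 5.81 and 6.63. None of these 7 genes passed in limma on the 6 arrays, with adjusted p-values from 0.0804 for ccl1 to 0.753 for pglyrp6. The gene ccl1 again had 2 levels in testes, with 3 of 10 heat testes and 7 of 10 control testes at 11.66 or higher and the others at 7.88 or lower. The gene casp3b also varied widely in testes of both temperatures. Of 10 heat testes, 8 lay at 8.37 to 10.92 and 2 at 6.76 to 6.81. Of 10 control testes, 7 lay at 8.59 to 11.30 and 3 at 5.84 to 7.60.

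Named genes with lower values included dusp4, kiss1 and ghrb. The gene dusp4, a phosphatase that switches off MAP kinases, had 8.44 and 9.08 in heat ovaries 1 and 3, 7.67 and 7.62 in heat ovaries 2 and 4, and 11.59 to 12.11 in the controls. The difference of −3.18 ± 0.29 (SE) did not pass on the 6 arrays (adjusted p = 0.0621 in limma). The neuropeptide gene kiss1 had 5.03 and 6.79, then 5.64 and 6.03, against 10.17, 10.33, 9.17 and 9.58 (adjusted p = 0.279 in limma). For both genes every heat ovary was below every control ovary by at least 2.38 log2 units. Both were also lower in control testes than in control ovaries, with differences (testis minus ovary) of −5.94 for dusp4 and −3.17 for kiss1. The part of testis transcripts in the low values of heat ovaries 2 and 4 was not tested. The growth hormone receptor gene ghrb had 8.94 and 7.14 in heat ovaries 1 and 3 against 10.93, 10.41, 10.32 and 10.88, and its 2 heat values were unlike each other. The related gene kiss2 had 9.59 and 9.52 against 9.38, 9.38, 9.19 and 8.23, so both heat values were above all controls. The related gene dusp5 had 9.37 and 9.60 against 9.53 to 9.78 and overlapped. Both relatives were chosen after their values were seen.

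**Figure D3:**
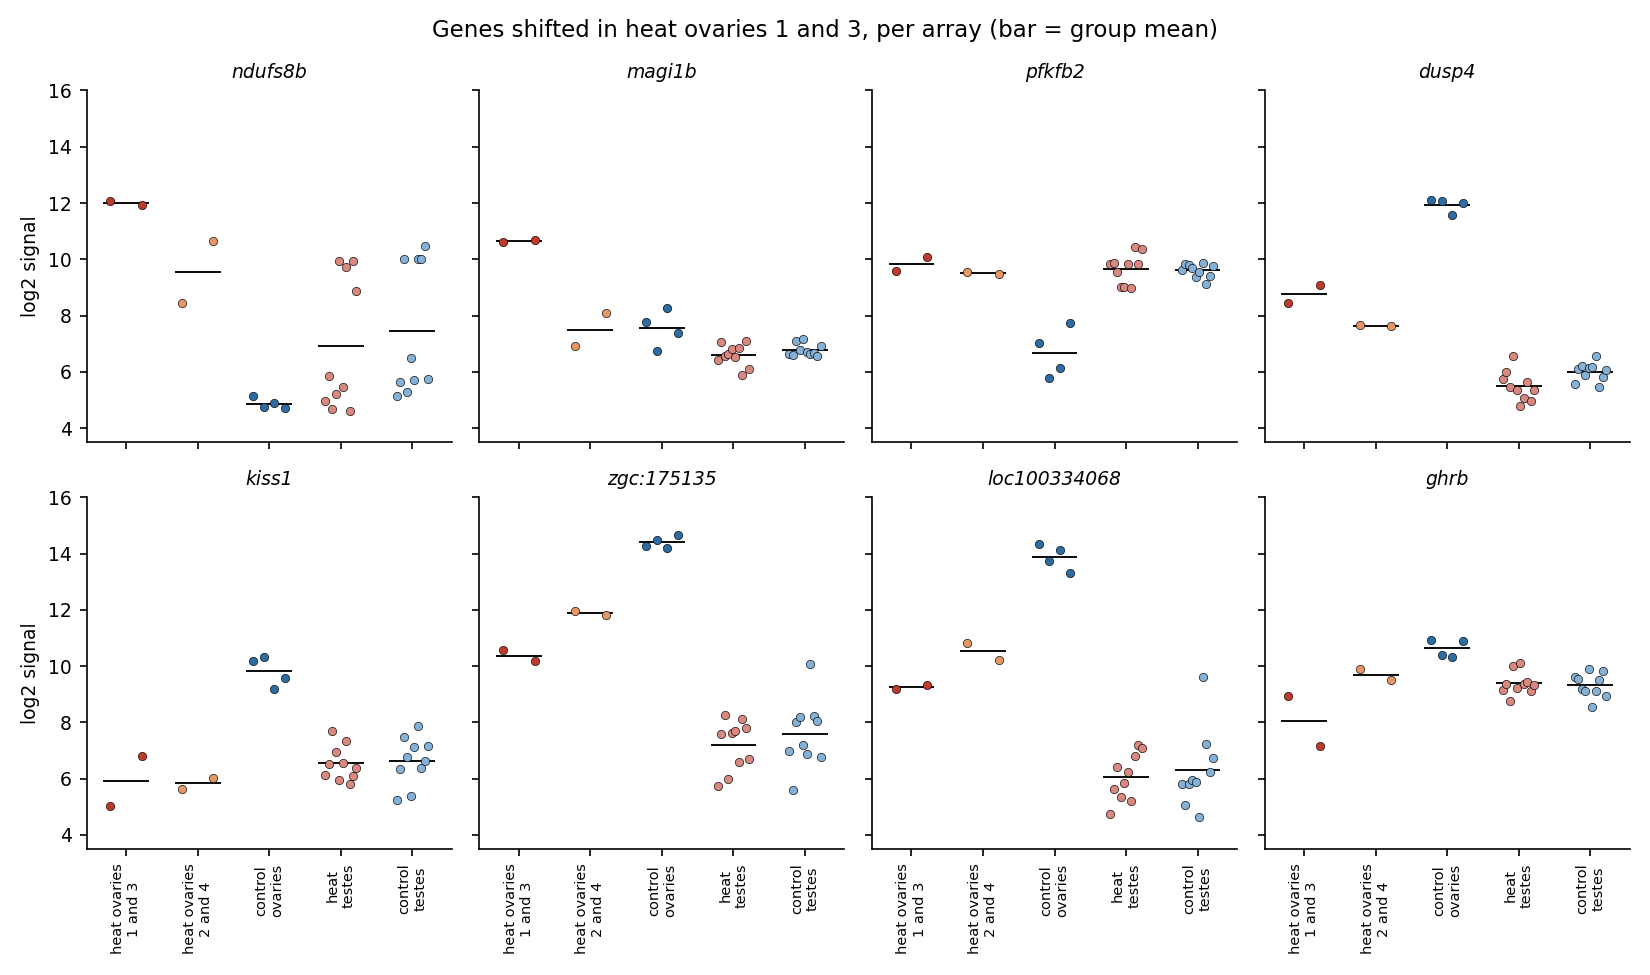
Log2 signal (vertical axis) of 8 genes in each array of 5 adult groups, where a point is an array and a bar the mean of its group. In ndufs8b, magi1b and pfkfb2 heat ovaries 1 and 3 lie above the control ovaries and in dusp4, kiss1, zgc:175135, loc100334068 and ghrb below them. Heat and control testes overlap in all 8 genes, and ndufs8b has 2 levels at both temperatures.

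A further 5 named genes had lower values in heat ovaries 1 and 3. The row wu:fi38e05 (myom2a), a gene for a protein of the muscle M band, had 6.87 and 7.40 in heat ovaries 1 and 3 against 11.36, 10.47, 10.30 and 11.63 in the controls. The bile salt transporter gene abcb11b had 7.18 and 7.10 against 10.42, 9.31, 9.14 and 10.60. Heat ovaries 2 and 4 were also below the controls in both genes, with 7.69 and 8.75 for wu:fi38e05 and 7.11 and 6.12 for abcb11b. Control testes had means of 10.49 for wu:fi38e05 and 6.82 for abcb11b, so for abcb11b testes were low as well. The GABA receptor gene gabbr2 had 5.52 and 5.25 against 8.62, 8.02, 6.76 and 8.18, and gabrb2l had 6.51 and 6.82 against 8.19 to 8.40. The row si:ch211-254n4.3 (tafa3b), for a small secreted protein, had 6.81 and 7.65 against 9.95, 9.05, 9.18 and 9.89. Adjusted p-values of these 5 genes in limma on the 6 arrays were 0.135 to 0.488, and none passed there.

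The testes gave independent arrays of the same exposure. Heat testes differed from control testes in 20 rows (0.0635%) in limma, and 0 of the 134 shifted rows were among them. Of the 67 rows above the controls in ovaries, 38 had a positive and 29 a negative difference in testes (median 0.06), and of the 67 rows below, 32 were positive and 35 negative (median −0.05). Over all rows the median difference in testes was 0.02. Signs in testes were thus mixed for both groups of rows. The shifted rows were more variable among control testes than rows in general: 27.6% of them had an SD of at least 1 log2 unit over the 10 control testes, against 5.43% of all rows, and their median SD was 0.63 against 0.45.

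A test of the difference between the heat effect in ovaries and the heat effect in testes used 26 adult arrays, which share 1 estimate of the spread. It called 36 rows (0.114%), 23 of them among the 134 shifted rows, which were chosen on the ovary values that enter this difference. Without heat ovary 1 it called 89 rows, and without any other 1 of the ovaries 39 to 54. Of the named genes, 8 passed. The difference was 3.27 for magi1b (adjusted p = 5.63e-05 in limma), 2.98 for zgc:162239 (5.63e-05), 3.09 for pfkfb2 (0.00334) and 3.11 for glulc (0.045). It was −2.67 for dusp4 (0.00324), −2.52 for zgc:162972 (0.00462), −2.65 for ghrb (0.00839) and −3.80 for kiss1 (0.0164). None of the 8 genes passed between heat and control testes (adjusted p = 0.327 to 0.941 in limma), where levels were for example 6.54 ± 0.61 in heat and 6.64 ± 0.85 in control testes for kiss1 (SD, n = 10 each) and 9.67 ± 0.53 against 9.60 ± 0.24 for pfkfb2. For ndufs8b, whose spread in testes was wide, the difference of 7.66 had an adjusted p of 0.151. The ovary comparison within the same 26 arrays called 78 rows, 2 of them among the 8 rows called on 6 arrays, namely zgc:175135 and loc100334068. There, magi1b and zgc:162239 (1.75e-05 each), dusp4 (3.27e-05), pfkfb2 (0.000357), ghrb (0.00311), kiss1 and zgc:162972 (0.00337 each) and glulc (0.00609) had adjusted p-values under 0.05 in limma. On the 6 ovary arrays none of these 8 genes passed. Further named genes with an adjusted p under 0.05 in limma within the 26 arrays, but not on the 6, were zgc:111893 (0.0222), si:ch211-254n4.3 (0.0225), wif1 (0.0251) and zgc:92880 (0.0269). Most arrays behind the shared spread were testes. The control ovary SD was above both testis SDs for glulc (1.47 against 0.37 in heat and 0.52 in control testes), pfkfb2 (0.88 against 0.53 and 0.24), magi1b and zgc:162239. It was below both for dusp4, kiss1, ghrb and zgc:162972. These ovary SDs leave out heat ovaries 1 and 3, which lay 1.77 log2 units apart for kiss1 and 1.80 for ghrb. For dusp4 they lay 0.64 apart and for zgc:162972 0.015. The control ovary SD alone thus does not show the full spread among ovaries for kiss1 and ghrb.

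In juvenile trunks, which come from other fish at another age, 4579 rows (14.5%) differed between temperatures, and 23 of the 134 shifted rows were among them. Over the shifted rows the median difference in trunks was 0.04 for those above the controls and 0.03 for those below, against 0.04 over all rows. Of the 7 rows that fell in ovaries, 4 were lower in heat trunks and passed, 1 was higher and passed (ev558070), and 2 did not pass. Among the 4, zgc:175135 had a median of 6.32 in heat and 12.19 in control trunks, and loc100334068 had 5.31 and 11.37 (adjusted p = 0.0015 and 0.00086 in limma). The egg coat gene zp3b had 8.07 in heat and 13.93 in control trunks in the same fish, so the oocyte signal moved with these 2 rows, and its part in the trunk result was not tested. In adult ovaries zp3b overlapped between heat ovaries 1 and 3 and the controls. Neither dusp4 (6.40 in heat and 5.98 in control trunks, adjusted p = 0.44), kiss1 (7.72 and 7.15, 0.75) nor pfkfb2 (11.62 and 11.53, 0.61) passed in trunks.

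The 33 gene lists examined, with 1083 distinct measured rows, held 12 shifted rows, 6 higher and 6 lower, and 23 lists held none. The 12 rows are 1.11% of the list rows, against 0.426% of all rows, and since the lists were chosen with earlier results known nothing is read from that share. Outside the gonad lists 1 list row, ndufs8b, passed in limma. Among the gonad lists, the 31 oocyte and egg coat genes had list means of 12.66 and 12.68 in the heat ovaries against 12.63, 12.68, 12.88 and 12.49 in the controls, with a median difference of −0.10. Within that list the egg coat gene zp3.1 had 14.45 and 14.58 against 13.05, 13.13, 14.01 and 12.29. The 28 genes of meiosis and spermatogenesis had list means of 8.47 and 8.65 against 8.49, 8.45, 8.17 and 8.47, where control testes averaged 11.76. Median differences were 0.13 for ovarian follicle and estrogen genes, 0.07 for testis somatic and androgen genes, 0.08 for germ plasm and piRNA genes, −0.10 for vitellogenin uptake and yolk, and 0.11 for ovulation proteases and inhibitors. None of the 7 gonad lists, with 166 distinct rows, had a shifted member, and at the share of 0.426% over all rows fewer than 1 would be found among so many rows.

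Of the signaling lists, that of reproductive neuropeptides and gonadotropins had the median farthest from 0. The list of MAP kinase phosphatases and ERK feedback had a median of −0.07 with dusp4 as its shifted member. The reproductive neuropeptides and gonadotropins had a median of −0.25, the lowest of the 33 lists, with kiss1 and ghrb shifted. Its list means were 7.39 and 7.26 in heat ovaries 1 and 3, both below the 7.81, 7.80, 7.62 and 7.77 of the controls. The shifted members kiss1 and ghrb, with differences of −3.90 and −2.59, enter these means. The list was chosen with earlier results known, so its direction is given as a description. Of its 30 members 9 had a positive difference. At any distance, both heat ovaries lay below all controls in 7 members and above them in 2. Over all rows, 14.1% lay outside the control range at any distance in either direction. No member passed in limma (smallest adjusted p = 0.279). The gonadotropin subunit gene lhb of that list had 5.93 and 6.38 in the heat ovaries against 7.57, 7.88, 7.06 and 7.87, under the controls by less than 1 log2 unit. TGF-beta, BMP and activin genes had a median of 0.05 with no shifted member. Wnt genes had a median of 0.05 with 2 shifted members: the secreted inhibitor gene wif1 had 7.61 and 7.33 against 4.96, 6.14, 5.42 and 6.05, and ntla (tbxta), a transcription factor of embryonic mesoderm, had 5.60 and 5.10 against 7.46, 7.46, 7.04 and 7.36.

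Stress, immune and metabolism lists had medians between −0.09 and 0.25. The 46 heat shock and chaperone genes had list means of 9.99 and 10.01 in the heat ovaries against 10.03, 9.89, 9.92 and 9.92, a median of 0.04 and no shifted member. The median was 0.25 for the glucocorticoid and stress axis, 0.04 for DNA methylation and chromatin, 0.0099 for immediate early and prostaglandin genes, −0.09 for interferon and antiviral genes and 0.08 for hypoxia and oxidative stress, all with no shifted member. It was 0.02 for apoptosis, p53 and DNA repair, with casp3b shifted, and −0.009 for the cell cycle. In metabolism it was 0.08 for glycolysis, with pfkfb2 shifted, 0.12 for cholesterol and lipid synthesis (list means of 8.91 and 9.01 in the heat ovaries, above the controls at 8.81 to 8.86), −0.04 for the proteasome and 0.0018 for ABC and solute transporters, where abcb11b was the 1 shifted gene of 41.

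Markers of other cell types were compared in the same way. The median difference was 0.08 for leukocytes, −0.14 for endothelial and vascular genes, −0.10 for skeletal muscle, 0.18 for smooth muscle and stroma, 0.14 for epithelium and intestine and −0.03 for neural markers. The endothelial surface gene ecscr had 6.77 and 7.42 in the heat ovaries against 4.96 to 5.37. Erythrocyte markers had a median of 0.20, with a positive difference in 19 of 23 genes, and their list means of 8.87 and 8.93 were above the 8.64, 8.62, 8.54 and 8.42 of the controls. Heat ovaries 2 and 4 had 11.10 and 10.55. The part of this list in other results was not tested. The globin row zgc:92880 (hbba2) had 10.04 and 11.16 against 8.46, 8.85, 8.41 and 8.95, while ba1 (hbba1) had 13.15 and 10.90 against 13.40, 12.61, 11.97 and 9.71 and overlapped. Globin copies are nearly identical, so the signal of 1 copy is uncertain by its relatives. Liver markers had a median of 0.42, with list means of 8.81 and 8.64 against 8.13, 8.46, 7.76 and 8.81, which overlapped.

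The list that stood farthest from 0 was that of pancreas genes, which holds digestive enzymes of acinar cells and islet hormones. Its list means were 12.14 and 11.32 in heat ovaries 1 and 3 against 9.37, 11.39, 8.73 and 8.76 in control ovaries 1 to 4, with a median difference of 2.18 over 21 genes. Control ovary 2 was as high as heat ovary 3, heat ovaries 2 and 4 had 11.78 and 12.73, and control testes averaged 11.39. The carboxypeptidase gene cpa1 had 12.61 and 10.73 in heat ovaries 1 and 3 against 8.02, 11.04, 5.85 and 5.54, and the insulin gene ins had 12.95 and 9.71 against 8.45, 10.24, 6.04 and 6.22. In 19 of the 21 genes both heat ovaries were above control ovaries 1, 3 and 4. In 11 they were above all 4 controls, by less than 1 log2 unit each, where 14.1% of all rows lay outside the control range in either direction. No gene of the list was shifted or passed in limma (adjusted p = 0.787 to 0.978), and 15 had an unadjusted p under 0.05. Its signal moved with heat ovaries 1 and 3 and with control ovary 2 alike, and its part in other results was not tested.

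**Figure D4:**
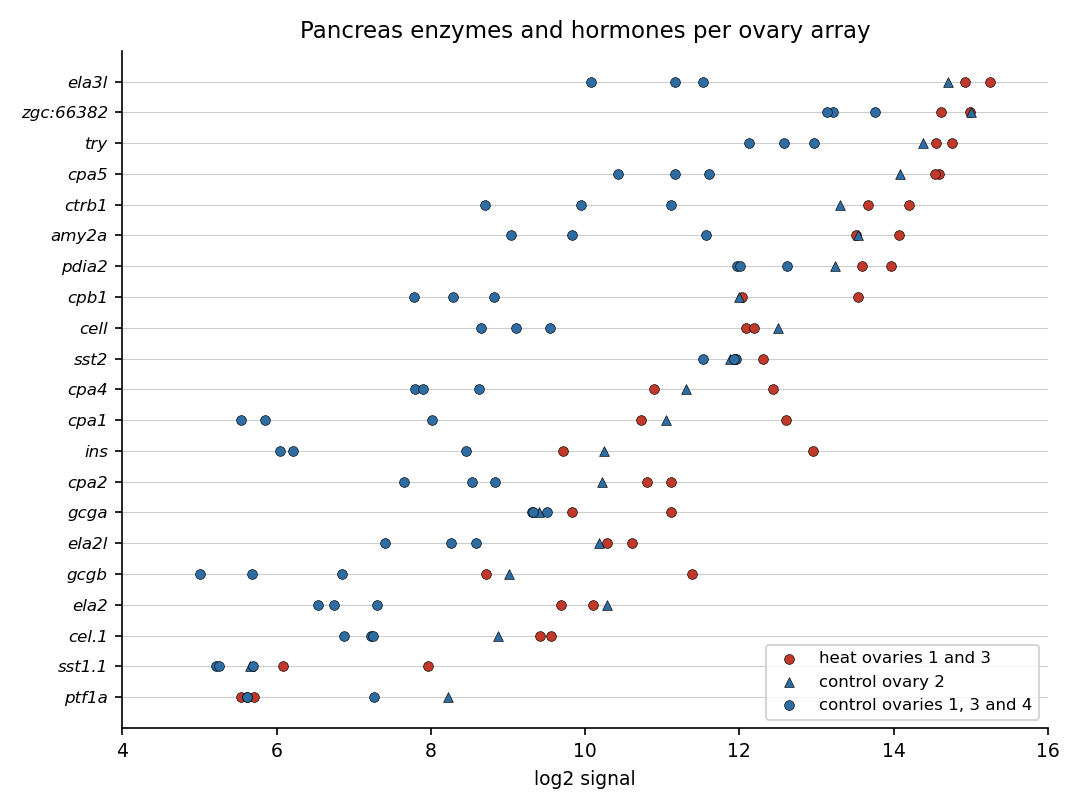
Log2 signal (horizontal axis) of the 21 measured pancreas genes (1 per line) in heat ovaries 1 and 3 (red circles), control ovary 2 (blue triangles) and control ovaries 1, 3 and 4 (blue circles). In most lines the triangle lies near the red circles and apart from the blue circles, as for cpa1 with 11.04 in control ovary 2 beside 12.61 and 10.73 in the heat ovaries.

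The positions of the shifted rows were uneven over the genome. Rows were placed by their names in the RefSeq gene table of the zebrafish assembly GRCz12tu, which may differ from the build behind the arrays, so that only chromosomes and the order of neighbouring genes are used. Of the 134 shifted rows, 55 could be placed. Chromosome 11 held 11 of them among its 562 placed rows (1.96%), chromosome 21 held 10 of 720 (1.39%) and chromosome 19 held 8 of 747 (1.07%). These 3 chromosomes held 29 of the 55 (52.7%) and 11.3% of all placed rows. No other chromosome held more than 3, and 7 of the 25 held none. The 3 chromosomes were picked after these counts were seen, and no test is given for them. The rows at a larger distance are part of those at a smaller one. Those at 2 log2 units are few and include several of the close neighbours described below. Among placed rows outside the control range by 2 log2 units the share of the 3 chromosomes was 76.9%, by 0.5 it was 30.6% and by any distance 15.8%. It was 19.7% for heat ovary 3 alone, 20.3% for heat ovary 1 alone and 29.9% to 41.0% without 1 of the control ovaries.

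**Figure D5:**
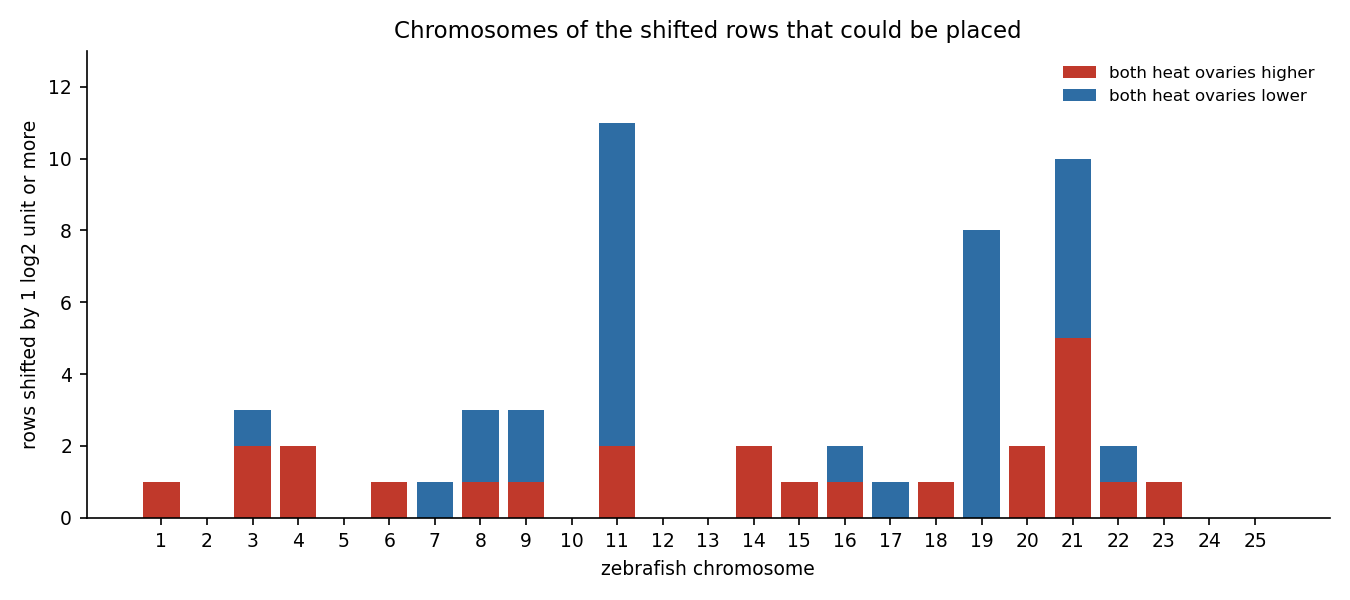
Number of shifted rows (vertical axis) on each zebrafish chromosome (horizontal axis) among the 55 that could be placed, with rows higher in both heat ovaries in red and rows lower in both in blue. Chromosomes 11, 19 and 21 have 11, 8 and 10 rows, and all 8 on chromosome 19 are lower.

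Direction also differed between these chromosomes. On chromosome 11, 9 of the 11 rows were lower in the heat ovaries, on chromosome 19 all 8 were lower, and on chromosome 21, 5 were lower and 5 higher. Of the 26 rows placed elsewhere, 17 were higher and 9 lower. Some shifted rows were close neighbours. On chromosome 11, loc100537499, zgc:175135 and loc100334068 lay within 5 placed rows of each other, and kiss1 lay next to csf1a, a gene for a growth factor of macrophages with a mean of 7.60 in heat ovaries 1 and 3 against 10.06, 10.07, 9.45 and 9.51. On chromosome 19, zgc:162972 (8.03 and 8.05 against 10.19, 10.35, 10.04 and 10.62), si:ch1073-127d16.1 (4.04 and 5.44 against 9.24, 10.46, 9.63 and 10.26) and si:ch73-367f21.4 (9.20 and 9.50 against 11.79, 11.67, 11.64 and 12.14) followed one another, all lower. On chromosome 21, ccdc82 (12.81 and 12.92 against 11.13, 10.97, 11.56 and 11.04) lay near zgc:162239, both higher. In all, 10 of the 55 placed rows had another shifted row within 5 placed rows. No share over all placed rows was computed for comparison, so nothing is read from this count. Also on these chromosomes were abcb11b, myom2a and magi1b (11), the homeobox gene hoxa5a (19; 6.64 and 6.17 against 7.85, 8.43, 8.06 and 8.69), gabbr2 and ntla (19), and dusp4, ghrb, glulc and ecscr (21), while ndufs8b was placed on chromosome 14. The genes csf1a, ccdc82 and hoxa5a were chosen after their values were seen.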

How the data were processed

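The authors deposited log2 signals. Per the submitters' processing notes they used RMA, a method of background correction, quantile normalization and summary to 1 value per row. No header states the log base. It was inferred from values between 3.76 and 15.89. The set of arrays normalized together and the array annotation are not stated. Quantile normalization and whole-transcriptome amplification can compress differences.

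Groups come from the labels, and heat ovaries 1 and 3 from the rule on amh, cyp11c1 and sycp3. The series' design text calls the arrays biological replicates. In R 4.3.3, limma 3.58.1 was run on all 31475 rows (lmFit, eBayes), two-sided, with Benjamini-Hochberg adjustment over all rows and a threshold of 0.05. The ovary comparison used 6 arrays and the difference between ovary and testis effects 26. Control SDs are given as mean ± SD, fitted errors as SE. The fit was tested on simulated data.

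The members, the 33 gene lists and the rules were chosen with earlier results of these data known. Named genes are all called rows, the 10 highest and 10 lowest shifted rows with a gene symbol and with heat ovaries within 1 log2 unit, a panel of sex and stress genes, and up to 3 shifted members per list. Others named with values (ndufs8a, kiss2, dusp5, lhb, zp3.1, cpa1, ins, ba1) were chosen after their values were seen. Of the row names, 14714 were current symbols in RefSeq GRCz12tu, 3182 an older name of 1 gene and 13579 had no match; current symbols stand in brackets. Alternatives changed the variance model, the arrays, the scaling, a filter on low rows, the replicate block and the distance.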

Additional observations from a re-analysis of the deposited data

Results flagged for a closer look

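Among 107 groups of 4 to 10 arrays checked for a single array far from the rest, 7 had one (6.54%), where chance gives about 1 in 20 groups. In the control ovaries, 5 of the genes named above had such an array. Control ovary 4 was low in ev558070 (8.31) and in vasa (12.78), control ovary 1 was low in zgc:162989 (9.57) and high in ccl1 (7.32), and control ovary 2 was high in si:ch211-153m11.1 (12.24). For ev558070, zgc:162989 and ccl1 both heat ovaries 1 and 3 lay beyond the array that stood apart as well, and for si:ch211-153m11.1 both lay below all control ovaries. The list mean of meiosis and spermatogenesis was low in control ovary 3 (8.17), and loc100334068 was high in control testis 7 (9.61). No control ovary stood apart in more than 2 of the 5 genes.

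For 8 named genes the heat effect in ovaries 1 and 3 differed from that in testes by the test given in the report. The difference, ovary minus testis on the log2 scale, was 3.27 for magi1b, 3.11 for glulc, 3.09 for pfkfb2 and 2.98 for zgc:162239. It was −3.80 for kiss1, −2.67 for dusp4, −2.65 for ghrb and −2.52 for zgc:162972. These genes were named because both heat ovaries lay outside the control range, so the ovary side of each difference was chosen to be far from 0.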

How the results depend on the processing

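On 6 arrays, 8 rows passed in limma. The count was 16 with an intensity trend and robust prior, 78 with the spread taken from 26 adult arrays, 83 from 28 adult arrays, 0 with all 4 heat ovaries (3334 at an unadjusted p under 0.05) and 1 to 4 when 1 array was left out, with ndufs8b in each of these last fits. With the order number of each array within its group as a replicate block it was 0 (1822 at an unadjusted p under 0.05). In that fit control ovaries 2 and 4 have no heat ovary to be compared with. Little is then left to estimate the spread from, so the 0 is not comparable with the other counts. Only 2 numbers are shared, with correlations of deviations of 0.066 and 0.137, each the highest of its heat ovary. With 2 heat ovaries the deviations mirror each other, so these values cannot show whether the numbers pair the ovaries. Array weights (9), repeated quantile normalization (6), subtracted medians (6) and a filter on low rows (12) stayed within 1.5 times in count. Of the 8 rows, all 8 were among the calls with array weights and 6 under each of the others. The filter kept rows above the median level, which removed ndufs8b, and its smallest adjusted p was 0.011 in limma. The 134 shifted rows became 50 with all 4 heat ovaries, 52 with the filter, 4427, 544 and 26 at distances of 0, 0.5 and 2 log2 units, and 215 to 942 when 1 array was left out. The difference between ovary and testis effects called 36 rows, against 39 to 89 with 1 ovary left out, the highest without heat ovary 1. For 24 named genes, 0 of 351 values under these alternatives changed sign, 252 kept their side of the threshold, 25 moved past it and 74 no longer passed. The cause of these changes was not tested. A gene with both heat ovaries beyond all 4 controls keeps its sign when 1 array is left out. The 0 was thus largely set by how such genes were named. Among other named genes the sign did change with 1 array left out, as for cyp11a1 (differences of −0.65 to 0.53) and cyp19a1a (−0.52 to 0.24). With 1 heat ovary left out, the other is assumed to vary like the controls. Low signals near the floor of the arrays limit how far a gene can be seen to fall.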
